A study of Mus musculus with 2 samples.

Results

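The Fc gamma receptor family was described in 2 macrophage populations of the injured mouse heart by its 6 genes *Fcgr1*, *Fcgr2b*, *Fcgr3*, *Fcgr4*, *Fcer1g* and *Fcgrt*, out of 19505 genes with a name on the arrays. A member was taken by its symbol in the platform annotation, and each of the 6 was read by 1 probe set. MHCII+ macrophages and MerTK- macrophages were sorted inside a CD45+CD11b+ gate from hearts of male C57BL/6 wild-type mice aged 10 weeks that had undergone ischemia–reperfusion (IR), in which a coronary artery is closed for a time and then reopened. MHCII presents antigen to T cells, and MerTK is a receptor for dying cells. Neither population had a genetic change or a drug, the hours between IR and sorting are not given for these arrays in the sources used here, and no sham-operated hearts were compared. RNA came from pooled cells of more than 1 heart and was hybridized to 1 Clariom S array per population, so that every value below is 1 reading, no spread between replicates exists, and no test could be made.

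Fc gamma receptors bind the constant part of IgG and let a macrophage take up antibody-coated particles or be switched on by immune complexes. In mice FcγRI, FcγRIII and FcγRIV, encoded by *Fcgr1*, *Fcgr3* and *Fcgr4*, are activating: they signal through the common gamma chain, encoded by *Fcer1g*, which carries an activation motif (ITAM) that recruits the kinase Syk. FcγRIIB, encoded by *Fcgr2b*, carries an inhibitory motif of its own that recruits the lipid phosphatase SHIP1 and dampens the activating receptors. FcRn, encoded by *Fcgrt*, is related to MHC class I, pairs with beta-2 microglobulin and binds IgG inside acid endosomes, from which it is returned to the surface or passed on for antigen presentation.

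In the gene order of the mouse assembly GRCm38.p6, *Fcgr2b*, *Fcgr4* and *Fcgr3* are direct neighbours among the protein-coding genes of chromosome 1, and *Fcer1g* lies farther along the same chromosome. *Fcgr1* is on chromosome 3 and *Fcgrt* on chromosome 7. Promoter sequence is shown for the IgG-binding receptors and *Fcgrt*, because the activating receptors and the other members differ in it in 1 short word. Each is the 120 bases before the start site of the RefSeq transcript in GRCm38.p6, read on the strand of the gene. Capitals mark matches to GAGGAA on either strand (TTCCTC where it lies on the opposite strand), a word found in sites for the myeloid transcription factor PU.1. Its shorter part GGAA is not marked, and it also occurs in the sequences of *Fcgr2b* and *Fcgrt*. Capitals also mark TTCNNNGAA, the form of site bound by STAT factors after interferon gamma, which reads the same on both strands. The activating *Fcgr1* lies at chr3:96293970-96294089 on the minus strand, *Fcgr3* at chr1:171059404-171059523 on the minus strand and *Fcgr4* at chr1:171018806-171018925 on the plus strand. The inhibitory *Fcgr2b* lies at chr1:170976072-170976191 and *Fcgrt* at chr7:45103823-45103942, both on the minus strand.
Fcgr1: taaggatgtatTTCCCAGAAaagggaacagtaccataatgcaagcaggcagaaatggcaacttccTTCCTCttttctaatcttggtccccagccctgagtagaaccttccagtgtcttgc
Fcgr3: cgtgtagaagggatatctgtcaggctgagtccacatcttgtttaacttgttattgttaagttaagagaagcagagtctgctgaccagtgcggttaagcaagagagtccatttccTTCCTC
Fcgr4: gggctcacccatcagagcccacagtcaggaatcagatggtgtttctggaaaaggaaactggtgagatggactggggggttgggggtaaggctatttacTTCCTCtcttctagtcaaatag
Fcgr2b: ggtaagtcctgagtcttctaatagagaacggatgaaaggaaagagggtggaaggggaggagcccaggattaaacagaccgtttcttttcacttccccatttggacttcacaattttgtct
Fcgrt: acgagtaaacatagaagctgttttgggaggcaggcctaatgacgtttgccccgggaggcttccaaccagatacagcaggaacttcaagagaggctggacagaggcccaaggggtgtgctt

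Over the 250 bases before the start, GAGGAA was present in the promoters of the 3 activating receptors, each time on the opposite strand, and in none of the other 3 members, *Fcer1g* included. The word began 55 bases before the start in *Fcgr1*, 22 bases before it in *Fcgr4*, and 6 or 15 bases before it in *Fcgr3*, which has 2 annotated starts. Of all 32851 promoter windows of the same length, 23.3% held the word. The STAT form TTCNNNGAA was present in *Fcgr1* alone, beginning 109 bases before the start, and in 7.02% of all windows. Both words were picked with the values in view, and a match is a description of the letters and not of a bound site.

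The values are log2 intensities as deposited, and a difference is the value in MHCII+ minus that in MerTK- macrophages. As a floor for each array served the value under which 95% of 1448 smell, pheromone and taste receptor genes lay. It was 4.23 for MHCII+ and 4.68 for MerTK- macrophages, and 10517 genes had their higher value above it. Of these, 1407 (13.4%) were at least 2-fold apart towards MHCII+ and 724 (6.88%) towards MerTK- macrophages. The median difference was 0.15. The share of the 2-fold genes that were higher in MHCII+ macrophages, 66.0%, depended on the scaling: it was 50.9% after centring on that median, 54.5% after quantile normalization, 22.7% after centring on 11 housekeeping genes (median 0.45) and 98.8% after centring on the 4 hybridization controls, which differed by -1.14 to -0.75 (median -0.93). Values above 16, the log2 limit of a 16-bit scanner, show that the scale was moved after the scan, and whether it was also stretched, which would enlarge folds, was not tested. Of the genes that name the sorts, *H2-Aa*, of MHCII, was at 16.7 in MHCII+ and 8.39 in MerTK- macrophages, and *Mertk* at 8.77 and 5.97, under the 95th percentiles of the negative-control probe sets (9.03 and 9.66). *Ccr2*, the monocyte chemokine receptor that the study assigns to MerTK- macrophages, was bright on both arrays and higher on the MHCII+ one (16.15 and 15.18).

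The members' differences formed a graded order, from *Fcgrt* through *Fcgr2b*, *Fcgr1*, *Fcgr3* and *Fcgr4* to *Fcer1g*. The inhibitory receptor gene *Fcgr2b* and the FcRn gene *Fcgrt* exceeded the 2-fold threshold towards MHCII+ macrophages, a call that *Fcgr2b* lost after centring on housekeeping genes. The 3 activating receptor genes and their gamma chain stayed under 2-fold. Thus 2 of 6 members passed the 2-fold threshold towards MHCII+ macrophages, against 13.4% of all genes above the floor, and 0 of 6 towards MerTK- macrophages, against 6.88%. The first count was 1 after centring on housekeeping genes (5.22% of all genes) and 1 with a floor from negative controls, under which *Fcgrt* has no value. It was 4, with *Fcgr1* and *Fcgr3*, after centring on the hybridization controls (54.9% of all genes). It stayed at 2 after centring on the median of genes above the floor (9.92%) and after quantile normalization (10.5%). Towards MerTK- macrophages the count was 0 under each of these 4 scalings, beside 9.56% of all genes with the median as the centre, 17.8% with housekeeping genes, 0.666% with hybridization controls and 8.78% after quantile normalization. With 6 members, 1 gene moves the members' share by more than the whole background as deposited (13.4% and 6.88%). The median difference of the members was 0.37, beside 0.15 for all genes above the floor.

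**Figure D1:**
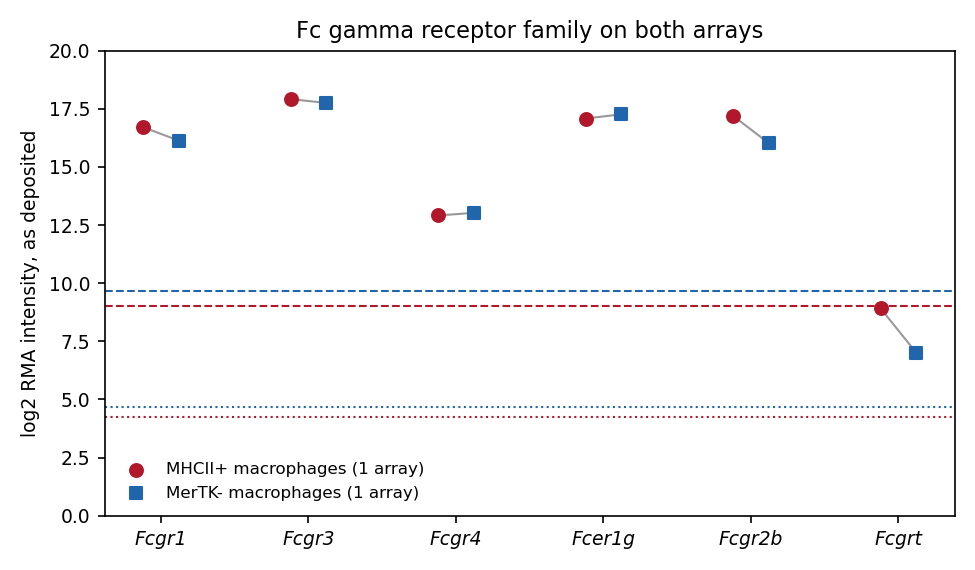
Deposited log2 RMA intensity (vertical axis) of the 6 family members in MHCII+ (circles) and MerTK- macrophages (squares), 1 array each and so without error bars, with dotted lines for the floors of each array and dashed lines for the 95th percentile of the negative-control probe sets. *Fcgr2b* and *Fcgrt* slope down from MHCII+ to MerTK- macrophages by 1.17 and 1.90, and *Fcgrt* is the one member under the dashed lines.

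*Fcgr1*, the high-affinity receptor that can bind single IgG molecules, was at 16.7 in MHCII+ and 16.1 in MerTK- macrophages. The difference of 0.57 was a 1.49-fold higher value in MHCII+ macrophages, and 28.0% of genes above the floor had a larger one. *Fcgr3*, the low-affinity activating receptor, which natural killer cells carry as well, was bright on both arrays, at 17.9 in MHCII+ and 17.8 in MerTK- macrophages. Its difference was 0.17, or 1.12-fold. *Fcgr4*, an activating receptor of monocytes, macrophages and neutrophils, was at 12.9 in MHCII+ and 13.0 in MerTK- macrophages. The values were 1.08-fold apart and leaned towards MerTK- macrophages as deposited, with a difference of -0.11.

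*Fcer1g*, the signalling chain on which the surface expression of the activating receptors depends, was at 17.1 in MHCII+ and 17.3 in MerTK- macrophages, a difference of -0.18 (1.13-fold). It thus leaned the same way as *Fcgr4*, by as little. The directions of these small differences depended on the scaling. *Fcgr3* turned to -0.28 after centring on housekeeping genes, and *Fcgr4* and *Fcer1g* turned to 0.82 and 0.75 after centring on the hybridization controls. *Fcgr1* and *Fcgr3* passed 2-fold towards MHCII+ macrophages under that last scaling, at 1.51 and 1.10, where 54.9% of all genes above the floor did so.

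*Fcgr2b* was at 17.2 in MHCII+ and 16.03 in MerTK- macrophages, so that the gene was bright in both populations and 2.25-fold higher in MHCII+ macrophages. Its difference of 1.17 was number 996 from the top of 10517, with 9.46% of genes above it. After centring on the median of genes above the floor it was 1.02, and after quantile normalization 1.19, still 2-fold. After centring on housekeeping genes it was 0.72, under 2-fold, although in the same direction. The IgG-binding domains of mouse *Fcgr2b* and *Fcgr3* are nearly identical, and whether their probe sets take up RNA of each other was not tested.

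*Fcgrt* was at 8.91 in MHCII+ and 7.01 in MerTK- macrophages, the largest difference of the family at 1.90 (3.73-fold). It was number 222 from the top, with 2.10% of genes above it, and stayed over 2-fold under each of the 4 other scalings, from 1.45 after centring on housekeeping genes to 2.83 after centring on the hybridization controls. It was also the least certain level. Both values lay above the floors of 4.23 and 4.68 but under the 95th percentile of 5222 negative-control probe sets, which was 9.03 on the MHCII+ and 9.66 on the MerTK- array. *B2m*, the light chain of FcRn and of MHC class I molecules, was near the top of the scale on both arrays, at 19.2 and 19.1, with a difference of 0.11.

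**Figure D2:**
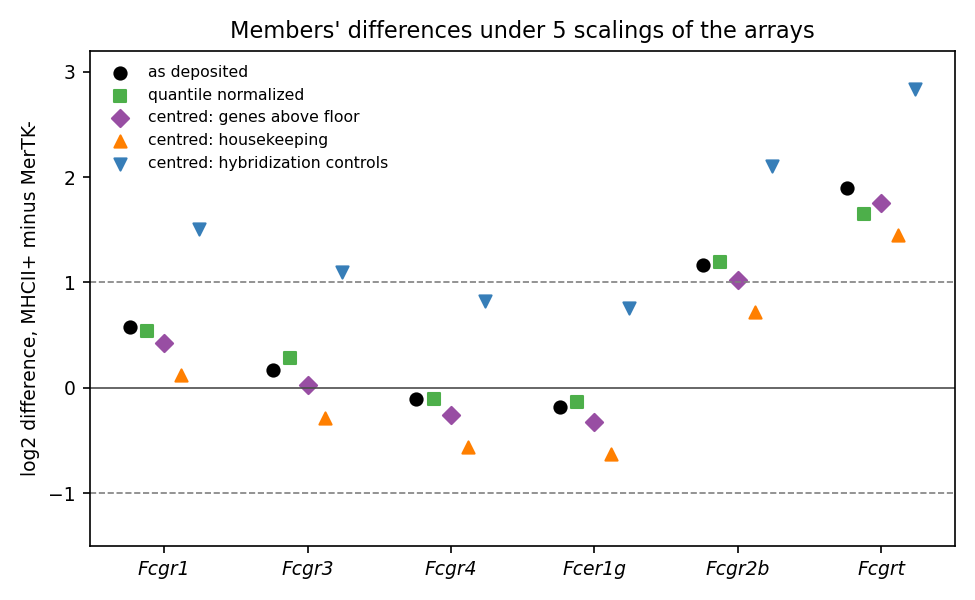
Log2 difference between MHCII+ and MerTK- macrophages (vertical axis) of each member as deposited, after quantile normalization and after 3 kinds of centring, with dashed lines at 2-fold. *Fcgrt* lies above 2-fold in each of the 5 scalings, *Fcgr2b* in each but the housekeeping one (0.72), and *Fcgr3*, *Fcgr4* and *Fcer1g* lie on either side of 0.

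Differences between the members' own differences do not move when a whole array is shifted, and so need no choice of a centre. As deposited, the ratio of MHCII+ to MerTK- values was 2.00-fold larger for *Fcgr2b* than for *Fcgr3* (a difference of 1.00), and 2.43-fold larger than for *Fcgr4* (1.28). Against *Fcer1g* it was 2.55-fold larger (1.35). *Fcgr2b* and *Fcgr1* were closer, with 0.60 between them, which is less than the 0.68 between the activating *Fcgr1* and *Fcgr4*.

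*Fcgr4* and *Fcer1g* lay within 0.07 of each other. *Fcgrt* stood 0.73 above *Fcgr2b* and 2.08 above *Fcer1g*, the full width of the family. Of the 15 pairs, 7 were at least 2-fold apart, each of them with *Fcgrt* or *Fcgr2b* as the higher member. The pairs restate the differences of 6 genes, and the share of such pairs among all genes was not computed. After quantile normalization the *Fcgr2b* to *Fcgr3* pair fell to 0.91, just under 2-fold, and the other pairs kept their side of 2-fold and their direction.

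**Figure D3:**
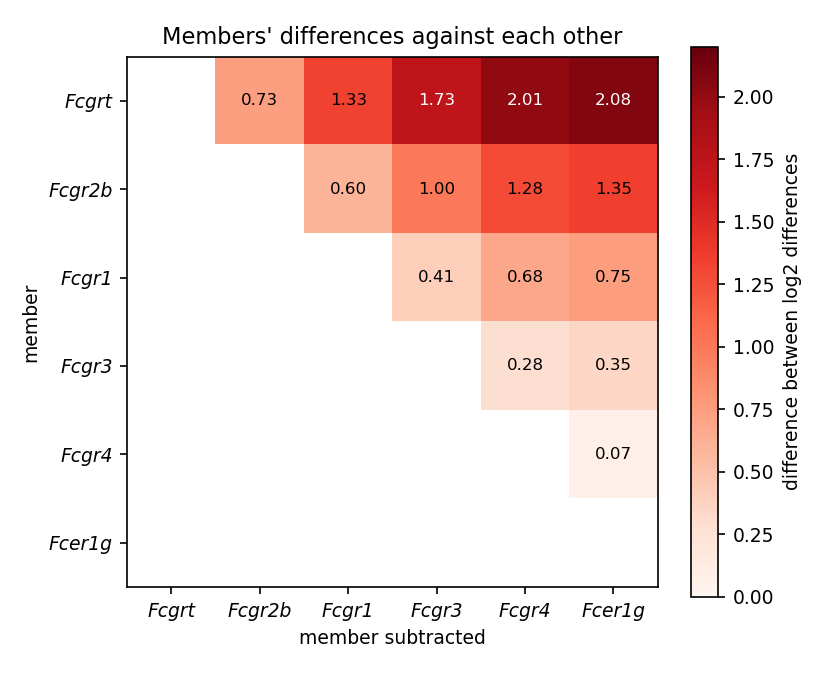
Difference between the log2 differences of each pair of members (row minus column, colour scale in log2 units), ordered from *Fcgrt* to *Fcer1g*. The rows of *Fcgrt* and *Fcgr2b* hold each of the pairs at or over 1.00, and the lower right corner, from *Fcgr1* to *Fcer1g*, holds values from 0.07 to 0.75.

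With 2 arrays, likeness between genes can only mean like values on both. By the distance between their log2 values, the genes nearest to *Fcgr1* were *Rpl23* (0.11) and *Slc25a5* (0.12), and those nearest to *Fcgr2b* were *Rpl11* (0.17) and *Lgals1* (0.18). *Dad1* and *Rps6* were nearest to *Fcgr3* (both 0.17), and *Tle5* (0.04) and *Atf6* (0.05) to *Fcgr4*. *Fcer1g* had *Cd300lf* (0.13) and *Cd14* (0.14) beside it, a myeloid receptor gene and that of the co-receptor for endotoxin, and *Fcgrt* had *Gpr171* (0.13) and *C1d* (0.17). Each distance is over 2 arrays and describes brightness and difference together.

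Among 13 other Fc receptor and Fc receptor-like genes, 6 were above the floor. As deposited, 3 passed 2-fold towards MHCII+ macrophages and 0 the other way, beside 13.4% and 6.88% of all genes above the floor. The first count was 1 after centring on housekeeping genes (5.22% of all genes) and 4 with the hybridization controls as the centre (54.9%). With low values set to the floor, 1 passed 2-fold towards MHCII+ macrophages as deposited. This was *Fcrls*, a scavenger receptor-like relative of the Fc receptors found on microglia and tissue macrophages, at 10.5 and 4.89. *Fcmr*, which encodes the IgM receptor, was at 4.59 and 3.16, and *Fcrlb* at 5.40 and 4.18, with the MerTK- values under the floor. *Trim21*, the cytosolic IgG receptor gene, was at 6.51 and 6.23. *Fcer1a* and *Ms4a2*, which encode chains of the high-affinity IgE receptor, lay under the floor on both arrays, at 3.03 and 3.27 and at 2.50 and 2.88, so that the partners of *Fcer1g* in mast cells and basophils were not detected.

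Other signalling adaptors were read beside *Fcer1g*. *Tyrobp*, which encodes the ITAM adaptor DAP12 of TREM2 and other receptors, was at 15.6 in MHCII+ and 16.4 in MerTK- macrophages, a difference of -0.88. It was under 2-fold as deposited, but past it towards MerTK- macrophages after centring on the median of genes above the floor (-1.03), on housekeeping genes (-1.33) and after quantile normalization (-1.01), and at 0.05 with the hybridization controls as the centre. *Hcst*, the gene of the adaptor DAP10, which has no ITAM and recruits PI3K, was at 5.07 and 6.62, 2.93-fold higher in MerTK- macrophages, and *Cd247*, the ITAM-bearing zeta chain gene of T and natural killer cells, was near the floor at 4.74 and 4.69. Of 9 measured receptors that also use the gamma chain, 6 were above the floor, with a median difference of -0.51. *Clec4d*, a lectin receptor gene of myeloid cells, was bright in both populations and 2.69-fold higher in MerTK- macrophages (15.98 and 17.4). *Clec4e*, which encodes the receptor Mincle, was at 17.6 and 18.1, and *Clec4n*, the gene of Dectin-2, at 15.7 and 15.5. *Ncr1*, a natural killer cell receptor gene, was at least 2.96-fold higher in MerTK- macrophages. *Lilra5* passed 2-fold towards MHCII+ macrophages as deposited (4.85 and 3.31), but was at least 1.13-fold higher with the MerTK- value set to the floor.

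The signalling machinery below the receptors went both ways as deposited. Of 29 measured kinases and adaptors that act downstream of the ITAM, 4 passed 2-fold towards MHCII+ and 4 towards MerTK- macrophages, with a median of 0.10, beside 13.4% and 6.88% of all genes. These counts were 2 and 7 after centring on housekeeping genes (5.22% and 17.8% of all genes), and 15 and 0 when the hybridization controls were the centre (54.9% and 0.666%). The 21 others lay within 2-fold as deposited. *Syk*, the kinase that docks on the ITAM, was at 12.4 and 12.6, a difference of -0.18 like that of *Fcer1g*. The adaptor gene *Blnk* was 3.73-fold higher in MHCII+ macrophages (7.69 and 5.79), and *Vav2*, which encodes a signalling protein phosphorylated after receptor engagement, at least 3.23-fold. In the other direction, *Pik3r5*, a regulatory subunit gene of PI3K gamma, was 2.59-fold and *Lcp2*, which encodes the adaptor SLP-76, 2.36-fold higher in MerTK- macrophages (12.9 and 14.1).

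In the inhibitory arm, 3 of 11 genes passed 2-fold towards MHCII+ and 0 towards MerTK- macrophages, beside a background of 13.4% and 6.88%, and the median was -0.0027. After centring on housekeeping genes the counts were 1 and 2 (5.22% and 17.8% of all genes). With the hybridization controls as the centre they were 5 and 0 (54.9% and 0.666%). *Dok1*, an adaptor gene that restrains Ras signalling, was 3.37-fold higher in MHCII+ macrophages (8.30 and 6.54), and *Inppl1*, which encodes the SHIP1 relative SHIP2, 2.68-fold (8.89 and 7.47). The third was *Dok2*, at 15.01 and 13.7. The phosphatase genes most closely tied to the inhibitory motif were level. *Inpp5d*, which encodes SHIP1, was at 14.4 and 14.5, and *Ptpn6*, which encodes SHP-1, at 13.0 on both. *Inpp5d*, with a difference of -0.14, thus stood apart from *Fcgr2b*, whose receptor recruits its product.

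The actin genes through which Fc receptors drive engulfment lay close together as deposited. Each of the 21 measured genes was less than 2-fold apart, as were 8386 of all 10517 genes above the floor. Differences ran from -0.96 (*Rac2*, a GTPase of blood cells) to 0.75 (*Limk1*, a kinase of cofilin), with a median of -0.001. *Rac2* passed 2-fold towards MerTK- macrophages after centring on the median of genes above the floor (-1.10), on housekeeping genes (-1.41) and after quantile normalization (-1.01). With the hybridization controls as the centre, 8 of the 21 passed 2-fold towards MHCII+ macrophages, beside 54.9% of all genes. Of 14 measured genes for signals known to set Fc gamma receptor levels, 3 passed 2-fold towards MerTK- and 0 towards MHCII+ macrophages as deposited, beside 6.88% and 13.4% of all genes. After centring on the hybridization controls 0 and 4 did, beside 0.666% and 54.9%. *Jak2*, which encodes a kinase of the interferon gamma receptor, was 2.93-fold higher (12.6 and 14.2), and *Irf1*, an interferon-induced transcription factor gene, 2.62-fold (14.1 and 15.5). The third was *Jak1*, at 10.3 and 11.5. *Spi1*, which encodes PU.1, was at 18.7 and 18.9, and the interferon gamma receptor gene *Ifngr1* at 12.2 and 12.3. Of 10 immunoglobulin chain genes only *Jchain* had a named probe set, and it was under the floor on both arrays, so that IgG transcripts were not analysed here.

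**Figure D4:**
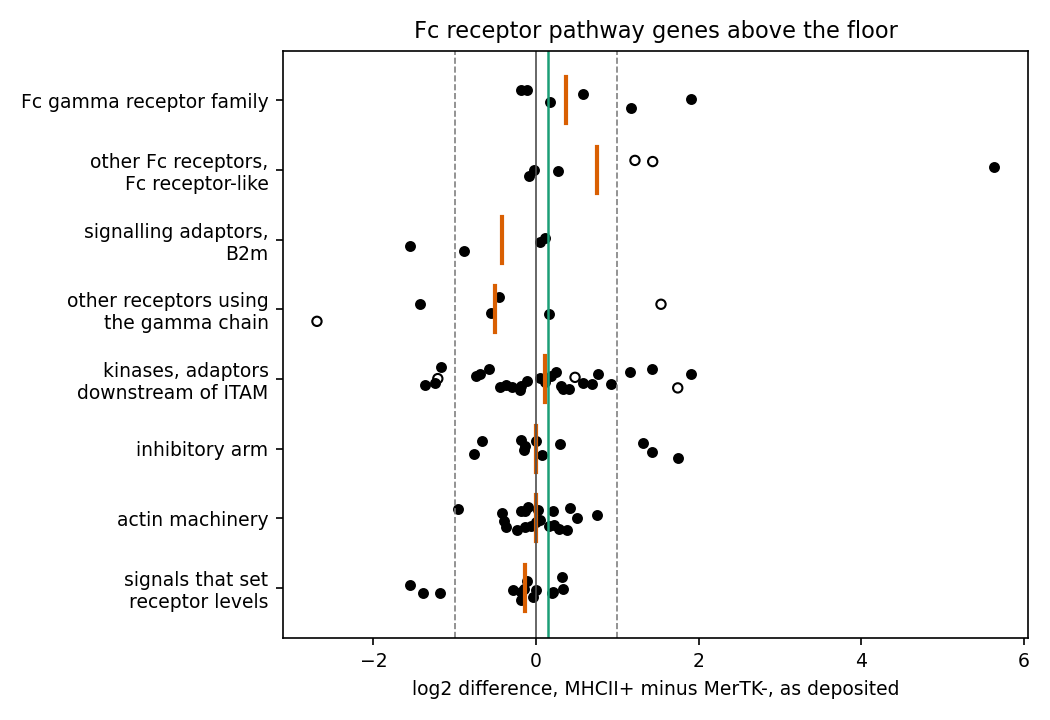
Log2 difference as deposited (horizontal axis) of each gene above the floor, by list, with filled points for genes above the floor on both arrays, open points for genes whose lower value is under the floor, short orange lines for list medians, a green line for the median of all genes above the floor (0.15) and dashed lines at 2-fold. Actin genes all lie within 2-fold as deposited (8 did not with the hybridization controls as the centre, and *Rac2* did not under the 3 other scalings). The 3 inhibitory arm genes beyond 2-fold all lie towards MHCII+ macrophages, a count that was 1 after centring on housekeeping genes and 5 on hybridization controls.

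Markers of other cells that carry these receptors also differed between the arrays. In sorted cells measured in bulk, fewer cells of a type and less RNA per cell cannot be told apart. Neutrophils carry *Fcgr3*, *Fcgr4* and *Fcer1g*. Of 11 measured neutrophil markers 10 were above the floor. Each of the 10 was 2-fold or more brighter on the MerTK- array as deposited, beside 6.88% of all genes above the floor. With low values set to the floor, 8 of them were. Counts of markers, here and below, were not repeated under the other scalings. Their summed level was 18.9 on the MHCII+ and 20.5 on the MerTK- array on the log2 scale. *Ngp*, a granule protein gene with the largest difference of the list, was at 8.62 and 12.2. Other neutrophil markers were bright on both arrays, such as *S100a8* (17.2 and 19.0) and *Csf3r* (16.5 and 18.2). *Camp* was under the floor on both arrays. Natural killer cells carry *Fcgr3* and *Fcer1g*. The MHCII+ array had 3 of 9 of their markers above the floor and the MerTK- array 7, with summed levels of 7.88 and 13.1. *Gzma* (5.20 and 13.0) was the brightest of them on the MerTK- array. *Klrk1*, the brightest on the MHCII+ array, went the other way (6.63 and 6.05). The part of these cells in the values of *Fcgr3*, *Fcgr4* and *Fcer1g* was not tested.

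B cells carry *Fcgr2b* and no activating Fc gamma receptor, and the CD11b gate of the sort should leave out most of them. Of 7 measured B cell markers, 4 exceeded the floor of the MHCII+ array and 1 that of the MerTK- array. Summed levels were 8.56 and 8.17, most of it from *Ebf1* (7.99 and 7.85). The defining *Cd79a* was under the floor on both arrays (3.91 and 2.46), *Ms4a1* was at 4.52 and 2.79, and *Cd79b* was at least 1.81-fold brighter on the MHCII+ array (5.53 and 3.33). The part of B cells in the value of *Fcgr2b* was not tested. Endothelial cells carry *Fcgrt* and, in some beds, *Fcgr2b*. Of their 7 measured markers 6 were above the floor. Each of the 6 was lower on the MHCII+ array as deposited, as were 4368 of all 10517 genes above the floor. Summed levels were 13.9 and 15.7, led by *Fabp4* (13.7 and 15.6). The part of endothelial cells in the values of *Fcgrt* and *Fcgr2b* was not tested. Dendritic cells carry Fc gamma receptors and MHCII. Of 10 markers 5 exceeded the floor of the MHCII+ array and 3 that of the MerTK- array, with summed levels of 11.2 and 8.77. *Ccl22* and *Cd209a* were at least 14.0-fold and 15.4-fold higher on the MHCII+ array. *Itgae* was at least 1.47-fold higher on the MerTK- array (3.78 and 4.78), and *Ccr7* was level (8.47 and 8.23). *Flt3*, *Zbtb46*, *Xcr1* and *Clec9a* were under the floor on both. The part of dendritic cells in the values of *Fcgr2b* and *Fcgrt* was not tested.

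Markers of the labelled cells were read last. Resident macrophage markers had 13 of 13 genes above the floor. As deposited, 11 of them were past 2-fold towards MHCII+ and 0 towards MerTK- macrophages, beside 13.4% and 6.88% of all genes. Their median difference was 2.81, led by *Folr2* (10.6 and 4.68) and *C1qa* (14.6 and 9.79). Monocyte markers were bright on both arrays, with summed levels of 20.1 and 20.4 and a median difference of -0.28. Only *Hp*, the haptoglobin gene, was 2-fold apart among 9, being 2.62-fold higher in MerTK- macrophages. As deposited, *Fcgrt*, *Fcgr2b*, *Fcgr1* and *Fcgr3* differed in the direction of the resident macrophage genes, each by less than the median of that list. Of all 10517 genes above the floor, 6146 were higher and 4368 lower in MHCII+ macrophages as deposited.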

How the data were processed

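RNA of 2 sorted macrophage populations was measured on 1 Clariom S array each. The deposited values are log2 intensities, which the authors made by Robust Multichip Analysis under default settings, with global scaling as the normalization. Affymetrix Expression Console, without a version, is the software in the submitters' processing notes. Their genome build was not given in the sources used here. Of 22206 transcript probe sets, 2634 had no gene symbol and were not used for genes, and no probe set had several symbols. Symbols were updated by gene ID from the GRCm38.p6 table, and the probe set with the highest mean stood for a gene, which left 19505 genes. Promoters came from RefSeq (GRCm38.p6). All 6 members matched.

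Differences, floors and counts were computed in Python 3.11.15 with numpy 2.4.6 and pandas 2.3.3, and the counting was tested on simulated data. Where the lower value lay at or under the floor, the fold was taken against the floor and is given as "at least". A summed level is the log2 of the sum of the markers' linear values. The fold threshold of 2 is that of the study's methods. Their limma fit could not be made with 1 array per population, so no p-value is given, and precision is limited by this number of arrays. The named genes are all members, up to 2 genes per direction with the largest 2-fold differences in each list, a few fixed genes (the adaptors, *Syk*, *Inpp5d*, *Ptpn6*, *Mertk*, *H2-Aa*) and the 2 nearest genes to each member. Other genes in the text were named after their values were seen. The members and lists were chosen with earlier results of these data known. Alternatives were 4 scalings, 3 floors and the mean of a gene's probe sets.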

Additional observations from a re-analysis of the deposited data

How the results depend on the processing

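With 1 array per population no spread was available, so alternatives were judged by the 2-fold threshold and the sign. Centring on housekeeping genes left 1 member at least 2-fold higher in MHCII+ macrophages (*Fcgrt*), with a median over the members of -0.081, *Fcgr2b* at 0.72 and *Fcgr3* at -0.28. Centring on hybridization controls gave 4 such members and a median of 1.31, with *Fcgr1* at 1.51, *Fcgr3* at 1.10, *Fcgr4* at 0.82 and *Fcer1g* at 0.75. The floor from negative controls left 1, because *Fcgrt* then has no value. No member was at least 2-fold higher in MerTK- macrophages under any of the 4 other scalings. The floors and the mean of probe sets leave a member's difference as it is, so they could not add one. Quantile normalization and centring on genes above the floor kept each member's direction and side of 2-fold. The 99th percentile floor, no floor and the mean of probe sets could not change either. Each member has 1 probe set, and its values lie above these floors. Of the 112 counts over the pathway lists 27 moved, which means by over 1.5 times or to or from 0. Among them were the kinases and adaptors higher in MHCII+ macrophages, 15 after centring on hybridization controls and 2 after centring on housekeeping genes. All genes above the floor numbered 10517, and 3808 with the floor from negative controls, of which 602 and 311 were 2-fold apart towards MHCII+ and MerTK- macrophages. The immunoglobulin chains gave no count, since their 1 measured gene was under the floor. No paired analysis was possible because each population has 1 array and the labels give no replicate numbers.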
